A study of Gallus gallus with 9 samples.

Results

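The middle of the chick basilar papilla was compared with both of its ends, the base and the apex. The RNA came from untreated chickens at post-hatch day 1. The basilar papilla, the auditory sensory epithelium of birds, was dissected from the cochlear duct and cut into a base, a middle and an apex piece, and each region had 3 libraries, or 9 in all, of which 3 were of the middle. The replicates used 12 chickens (24 cochleas), or 4 chickens and 8 cochleas for each replicate, so each library pools several animals. Expression was given as FPKM, a fragment count scaled by transcript length and by the total of mapped reads. For each replicate number, log2(FPKM + 1) in the base and in the apex was set beside that in the middle, and the middle minus the mean of both ends was taken as the difference. A gene was described as above both ends when the middle exceeded the base and the apex of the same replicate number in all 3 numbers, and as below both ends in the opposite case, which makes 6 same-numbered comparisons for each gene. Neither description is a test, because genes without a regional difference can also meet it by chance. The share expected by chance was not estimated. Genes were kept when their mean FPKM reached 1 or more in any of the regions. Among these 13045 genes, 753 (5.77%) were above both ends and 488 (3.74%) were below both ends, whereas quantile normalization gave 559 above and 712 below. Of the genes above, 586 had a symbol, 138 shared their locus entry with another gene and 30 reached a mean FPKM of 1 in the middle alone. Of the genes below, 360 had a symbol, 84 shared a locus entry and 22 reached a mean FPKM of 1 only at an end.

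The basilar papilla holds hair cells, which turn sound into electrical signals, and supporting cells, which surround them and secrete the tectorial membrane. High frequencies are detected at the base and low frequencies at the apex, so genes tied to frequency are usually described as gradients from one end to the other. A gene that peaks or dips in the middle does not follow such a gradient. The neurons that carry the signal to the brain sit in the cochlear ganglion beside the papilla, send their fibres to the hair cells, and are wrapped by Schwann cells. A dissected piece can therefore also hold ganglion tissue. In bulk RNA from a piece, fewer cells of a type and less RNA per cell cannot be told apart.

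The summed FPKM of a library lay between 660314 and 741975, and from 12477 to 12779 genes per library reached an FPKM of 1. The steps between low FPKM values gave fragment numbers between 1.00 and 1.61 times those of base library 1, which is an approximate measure of relative depth. Hair cell and supporting cell markers were found in all 9 libraries, as the tissue label says, and so were markers of ganglion neurons and of Schwann cells. The mean log2(FPKM + 1) over 26 hair cell genes lay between 2.88 and 3.68 in the base, between 3.89 and 4.47 in the middle and between 4.45 and 4.86 in the apex, so the middle stood between the ends. Same-numbered libraries deviated together from their region means, and a second fit had a block, a term for the replicate number.

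The mean level of the ganglion neuron list was higher in the middle than at either end in each replicate number. The list held 32 genes, 24 of which were measured, and its score was the mean log2(FPKM + 1) over them. The score was 3.80, 5.02 and 3.98 in base libraries 1, 2 and 3, 4.12, 6.45 and 4.98 in the middle libraries, and 3.44, 5.71 and 3.63 in the apex libraries. Replicate number 2 was the highest in each region, and the groups overlapped, since base 2 and apex 2 lay above middle 1. The middle minus the mean of both ends was 0.50, 1.08 and 1.18 on the log2 scale for numbers 1, 2 and 3 (mean 0.92 ± 0.37 SD, n = 3). The Schwann cell and myelin score differed less, by 0.24, 0.45 and 0.28, and it stayed close to its apex level in the middle. The hair cell score differed by 0.21, 0.23 and 0.20, with the middle between the ends and nearer the apex (3.04 in base 1, 4.05 in middle 1 and 4.66 in apex 1). The mean over all tested genes differed by 0.01, 0.05 and 0.02.

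**Figure D1:**
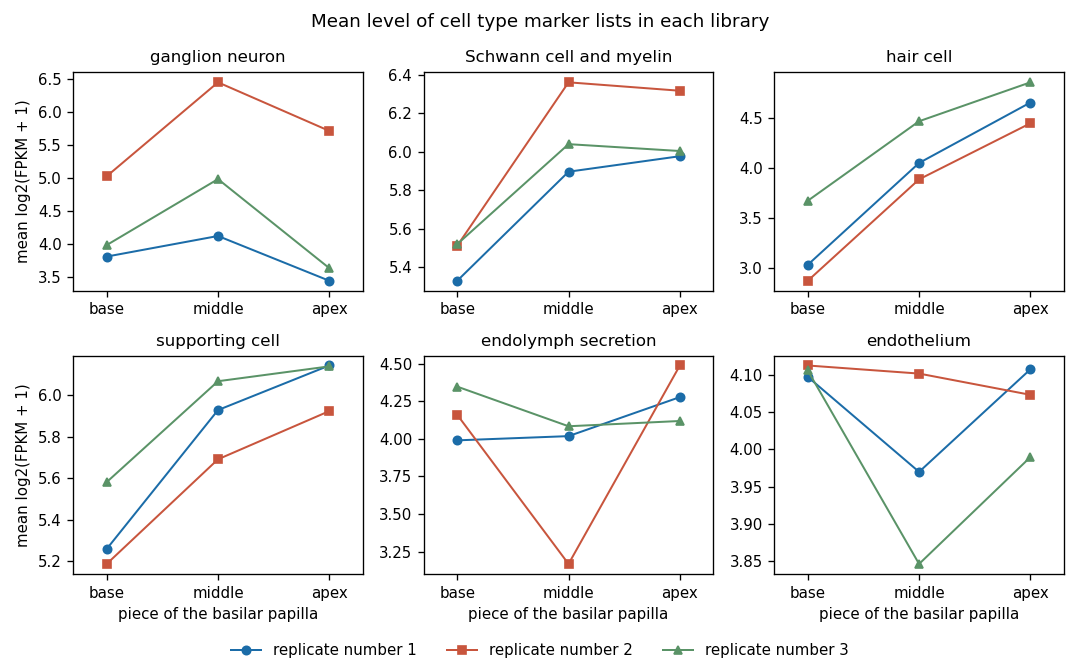
Mean log2(FPKM + 1) of 6 marker lists (vertical axis) in the base, middle and apex (horizontal axis), with a line for each replicate number. The ganglion neuron score peaked in the middle in all 3 numbers and was highest in number 2, whereas the hair cell and supporting cell scores were lowest in the base and highest in the apex, and the endolymph secretion score was low in middle library 2 alone (3.17).

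Of the 24 measured neuron genes, 10 (41.7%) were above both ends, against 5.77% of all tested genes, and 0 were below. The 10 were the neurofilament genes *NEFL*, *NEFM* and *NEFH*, the neuronal tubulin *TUBB3*, the tubulin-binding *STMN2* and *STMN3*, the synaptic vesicle fusion protein *SNAP25*, the glutamate transporter *SLC17A6*, the RNA-binding *ELAVL4* and the sensory neuron transcription factor *POU4F1*. In all 10, middle library 2 was the highest of the 9 libraries. The median difference over the 24 genes was 0.70 on the log2 scale, beside a median of 0.00 over all tested genes (-0.0045). The neurotrophin receptors *NTRK2* and *NTRK3*, which cochlear neurons are known to carry, did not share this pattern. *NTRK2* had 102, 111 and 110 FPKM in the base, 79.6, 90.0 and 78.4 FPKM in the middle and 90.8, 85.7 and 84.3 FPKM in the apex. *NTRK3* had 8.91, 9.23 and 8.26 FPKM in the middle, below all 3 apex libraries (11.7 to 14.9 FPKM). These were the only 2 measured genes of the list with a negative difference. A positive difference can also come from a rise between the base and the middle alone. In at least 2 other genes of the list the middle was level with the apex (middle minus apex -0.006 and -0.026).

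Without the block, limma called 1 gene higher (0.00767% of those tested) and 0 lower (0%) in the middle than the mean of both ends, where a call needed an adjusted p below 0.05 and a change in mean FPKM by a factor of 1.5 or more. At an unadjusted p under 0.05, 553 genes were higher and 492 lower. With the block, 84 genes (0.644%) were called higher and 27 (0.207%) lower. Of the 84, 68 were above both ends in all 3 numbers, and of the 27, 13 were below. Called against the base and against the apex separately, 0 genes passed in either direction without the block, where 62 higher and 51 lower genes had an unadjusted p under 0.05 in both. With the block, 33 genes (0.253%) were higher than each end and 2 (0.0153%) were lower than each end. Without replicate number 2, the fit with the block called 11 genes higher and 1 lower than the mean of both ends, and without number 1 or without number 3 it called 0 higher and 0 lower. Of the 45 genes named in the text that had an adjusted p below 0.05 with the block, *PLLP* alone also passed without it, and the other 44 had an adjusted p between 0.063 and 0.77 there. For these 44, rose and fell refer to the fit with the block alone.

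Genes known from neurons stood among those with the largest excess in the middle. *PVALB* encodes parvalbumin, a calcium buffer of fast-firing neurons, and lies at 51645215 to 51653703 on chromosome 1 of galGal5. It had 17.8, 176 and 17.7 FPKM in base libraries 1, 2 and 3, 48.7, 519 and 138 FPKM in the middle and 10.8, 261 and 9.69 FPKM in the apex. Middle 2 was the highest and each middle library exceeded its own ends, yet base 2 and apex 2 lay above middle 1 and middle 3, so the groups overlapped. The difference was 2.10 on the log2 scale, with a standard error of 1.24 and an adjusted p of 0.71 in limma without the block, and with a standard error of 0.38 and an adjusted p of 0.044 with it. *NEFH*, the heavy neurofilament, had 11.1, 79.9 and 11.7 FPKM in the base, 17.1, 294 and 58.7 FPKM in the middle and 2.07, 105 and 2.47 FPKM in the apex. Its groups overlapped in the same way, and its difference of 2.14 did not pass with the block (adjusted p = 0.062).

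The transcription factors *MAFA*, of the large Maf family, and *SCRT2*, a zinc finger repressor of neural cells, had the same shape at lower levels. *MAFA* had 2.16, 13.9 and 1.93 FPKM in the base, 4.13, 50.004 and 12.6 FPKM in the middle and 0.628, 18.6 and 1.01 FPKM in the apex. *SCRT2* had 1.80, 10.3 and 1.95 FPKM in the base, 3.67, 45.7 and 9.58 FPKM in the middle and 0.759, 17.2 and 0.963 FPKM in the apex. In both genes, number 2 was the highest of each region and the groups overlapped. Both rose in the fit with the block, by 1.75 and 1.64 on the log2 scale (adjusted p = 0.032 for each in limma), and neither passed without it (adjusted p = 0.71 for each).

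Genes of transmitter release were partly among those above both ends. *VAMP1*, the synaptic vesicle membrane protein, had 8.94, 43.6 and 10.2 FPKM in the base, 15.6, 146 and 36.9 FPKM in the middle and 5.79, 72.3 and 6.55 FPKM in the apex, a difference of 1.47 (adjusted p = 0.038 with the block, 0.74 without). *CPLX1*, which clamps vesicle fusion, had 10.5, 129 and 30.7 FPKM in the middle, with a difference of 1.44 that did not pass with the block (adjusted p = 0.063). In the ribbon synapse list, 6 of 21 measured genes (28.6%) were above both ends, against 5.77% of all tested genes, and 1 (4.76%), *CTBP1*, was below, against 3.74%, with a median difference of 0.33. Those above were *CABP1*, *CPLX1*, *RAB3C*, *SLC17A6*, *SNAP25* and *SYT7*. Of these, *SNAP25* and *SLC17A6* also stand in the neuron list, and *SLC17A6* shares its locus entry with another gene, which makes its values uncertain. The cell type behind the share of the ribbon synapse list was not tested. Other genes among the 15 with the largest steps were *RGS8*, a regulator of G protein signalling, *STMN2*, the glycolytic enzyme *ENO2* of neurons, the calmodulin-binding *PCP4*, the kinase activator *CDK5R2* and the adhesion protein *MDGA1*. *PCP4* and *MDGA1* rose with the block, by 1.48 and 1.81 (adjusted p = 0.016 and 0.025), whereas *RGS8*, *STMN2*, *ENO2* and *CDK5R2* did not pass against the mean of both ends (adjusted p between 0.056 and 0.081). *RGS8* was called against each end separately with the block (adjusted p = 0.028 and 0.042).

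Potassium channels formed a further group, with 6 of 41 measured genes (14.6%) above both ends, against 5.77% of all tested genes, and 0 below, at a median difference of 0.14. Among them were *KCNC1*, *KCNK1* and *KCNS1*. *KCNS1*, a silent subunit that modifies other channels, had 6.48, 36.4 and 7.08 FPKM in the base, 10.5, 123 and 30.6 FPKM in the middle and 2.80, 51.0 and 2.88 FPKM in the apex. Number 2 was the highest in each region and the groups overlapped. *KCNS1* rose by 1.70 with the block (adjusted p = 0.048). *KCNC1*, a fast delayed rectifier, had 5.44, 51.9 and 11.6 FPKM in the middle and rose by 1.38 with the block (adjusted p = 0.032). Among sodium and calcium channels, the pacemaker channel gene *HCN2* had 3.20, 25.5 and 6.59 FPKM in the middle and rose by 1.01 with the block (adjusted p = 0.046).

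**Figure D2:**
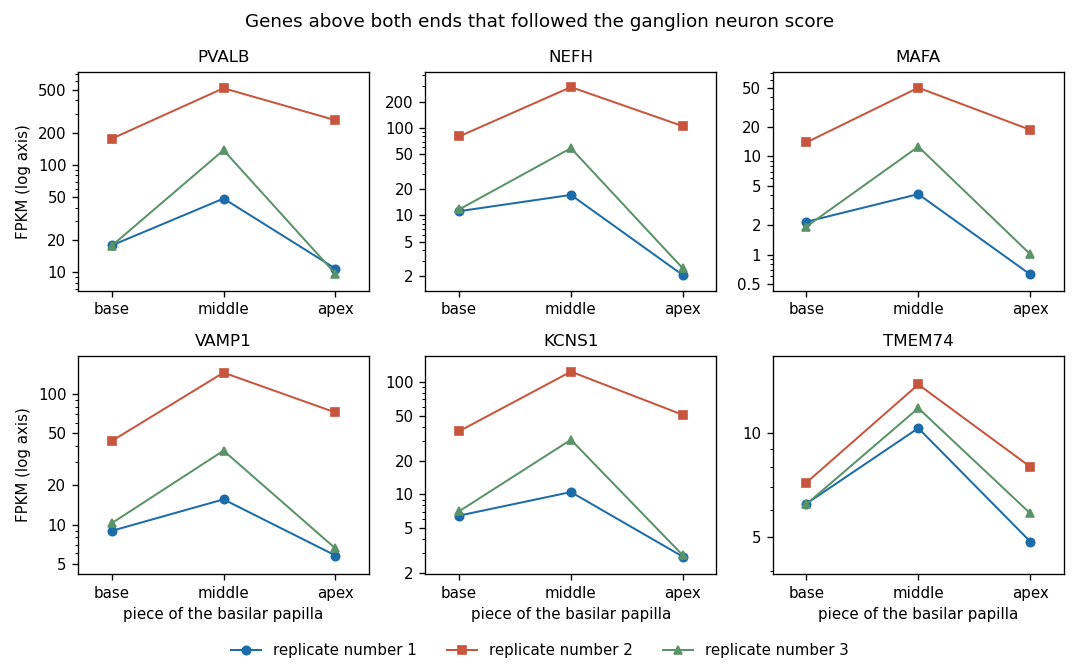
FPKM on a log axis (vertical) of 6 genes above both ends in the base, middle and apex (horizontal), with a line for each replicate number. *PVALB*, *NEFH*, *MAFA*, *VAMP1* and *KCNS1* were highest in number 2 in every region, and *TMEM74* differed little between numbers, with 10.3, 13.8 and 11.8 FPKM in the middle.

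To set ganglion RNA beside these genes, each gene was correlated with the ganglion neuron score over the 6 base and apex libraries, which leaves the middle out. A gene of the list was left out of the score it was correlated with. The score in these libraries is set largely by replicate number 2, and the correlation is a description over 6 libraries that share replicate numbers. Among the 753 genes above both ends, 215 (28.6%) had an r over 0.8, against 697 of all 13045 tested genes (5.34%) and 29 of the 488 genes below both ends (5.94%). The share was larger among the largest steps. Of the 25 genes with the largest smaller step, which is the lesser of the middle minus base and middle minus apex differences, 23 had an r over 0.8, as did 45 of the first 50 and 81 of the first 100. In 214 of the 215 genes, middle library 2 was the highest of the 9. Its place above the end libraries follows largely from how the genes were chosen. Apex 2 was the highest apex library in 215 of them and base 2 the highest base library in 209, and middle 2 had to exceed both. A further 393 genes above both ends (52.2%) had an r under 0.5, against 83.9% of all tested genes.

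The neuron score was then added to the fit without the block. The same score was used for every gene, so in this fit a gene of the list was part of its own score. For the 215 genes with an r over 0.8, the median difference went from 0.53 without the score to 0.033 at an equal score. In the fit with the score, 131 of the 215 had a positive difference, against 6628 of all 13045 tested genes. For the 393 genes with an r under 0.5, the median difference was 0.22 in both fits. For the 145 genes in between it went from 0.25 to 0.11, and for all 753 genes from 0.27 to 0.15. Over the neuron list itself, the median went from 0.70 to -0.049. The score is the mean of these same genes, so their mean difference at an equal score is 0 by construction. The neuron list median is therefore not a test. Over the ribbon synapse list, which shares *SNAP25* and *SLC17A6* with the neuron list, the median went from 0.33 to 0.066. The correlation and the fit both draw on the end libraries, so they are not separate measurements. With the score in the fit, 7 genes were called higher and 3 lower, and 1003 higher and 731 lower genes had an unadjusted p under 0.05. With the score and the block together, 0 genes were called in limma, where 566 higher and 396 lower genes had an unadjusted p under 0.05, and 9 libraries leave few degrees of freedom for such a fit. In that fit the median difference was 0.044 for the 215 genes and 0.21 for the 393 genes. Of the 84 genes called higher with the block, 24 had an r over 0.8 and kept more. Their median went from 1.30 to 0.19 at an equal score, and to 0.44 with the block as well. For the 40 with an r under 0.5 it was 0.77, then 0.87 and 0.77. These genes were called on the same values, so no test is drawn from them.

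**Figure D3:**
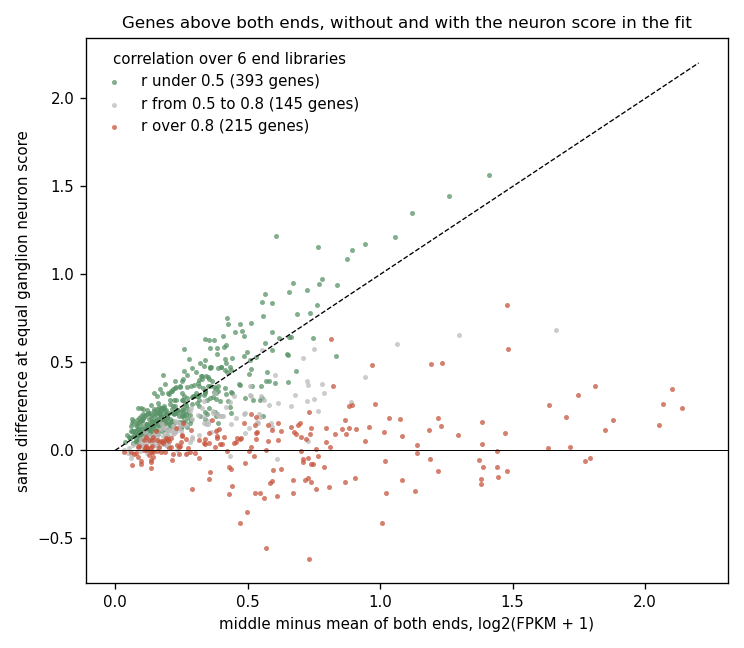
Middle minus the mean of both ends for the 753 genes above both ends, without the ganglion neuron score in the fit (horizontal, log2) and with it (vertical, log2). The dashed line marks equal values. The 215 genes with an r over 0.8 lay near 0 on the vertical axis (median 0.033), and the 393 genes with an r under 0.5 lay around the dashed line.

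Several single genes of the neuronal group showed the same shift, and others kept more of their difference. *POU4F1* went from 1.06 to 0.61 at an equal score and *PCP4* from 1.48 to 0.58. With the block as well, *POU4F1* was at 0.63 and *PCP4* at 1.17. *NEFH*, *TUBB3*, *NEFL*, *NEFM*, *STMN3*, *ELAVL4* and *POU4F1* were themselves part of the score. At an equal score, the difference of *PVALB* was 0.35, that of *NEFH* 0.24, that of *MAFA* 0.31, that of *VAMP1* 0.10 and that of *ENO2* 0.02. *TUBB3*, *NEFL*, *NEFM* and *CPLX1* went below 0 (-0.12, -0.16, -0.09 and -0.004), as did *STMN3* (-0.19) and *ELAVL4* (-0.05). With the block as well, *PVALB* was at 0.97, *NEFH* at 0.30, *MAFA* at 0.62, *VAMP1* at 0.36, *TUBB3* at 0.21, *NEFL* at 0.12, *NEFM* at 0.32 and *CPLX1* at 0.06, while *ENO2* was at -0.01, and no gene was called. *TMEM74*, a lysosomal membrane protein gene chosen after its values were seen, had 6.25, 7.19 and 6.23 FPKM in the base, 10.3, 13.8 and 11.8 FPKM in the middle and 4.87, 7.99 and 5.87 FPKM in the apex. All 3 middle libraries exceeded all 6 end libraries, although its r was 0.93, and *TMEM74* was higher by 0.81 with the block (adjusted p = 0.010) and by 0.63 at an equal score (adjusted p = 0.033), or 0.61 with the score and the block (adjusted p = 0.59).

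A second group of genes above both ends had an r under 0.5 with the neuron score. Of the 33 genes called higher than each end with the block, 20 had an r over 0.8 and 11 an r under 0.5, and 4 of the 11 had no symbol. The other 7 were *GADL1*, *CYP26B1*, *MYH11*, *RET*, *SLC45A2*, *FAM237A* and *CABP7*, which were singled out after their values were seen. All 3 middle libraries exceeded all 6 end libraries in 99 tested genes (0.759%), and all 3 lay below all 6 ends in 116 (0.889%). Of the 99, 86 had an r under 0.5, as did 83.9% of all tested genes, and 2 an r over 0.8, against 5.34%. Genes that vary strongly between replicate numbers are less able to meet this criterion.

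*CYP26B1* encodes an enzyme that degrades retinoic acid, a signal that patterns hair cells along the developing papilla of the chicken, and lies at 90736410 to 90740599 on chromosome 4. It had 23.7, 14.3 and 21.6 FPKM in the base, 56.7, 32.1 and 43.1 FPKM in the middle and 31.1, 23.1 and 24.8 FPKM in the apex. The lowest middle library, middle 2, lay above the highest end library, apex 1, and number 2 was the lowest in each region. *CYP26B1* rose by 0.90 with the block (SE 0.08, adjusted p = 0.0099) and did not pass without it (SE 0.20, adjusted p = 0.31). At an equal neuron score it was higher by 1.14 (adjusted p = 0.032), and by 0.77 with the score and the block (adjusted p = 0.59). In the list of retinoic acid and thyroid hormone genes, 1 of 19 measured genes was above both ends, *CYP26B1*, and 1 was below, *ALDH1A2*, which encodes an enzyme that makes retinoic acid. That is 5.26% in each direction, against 5.77% above and 3.74% below among all tested genes. *ALDH1A2* had 51.1, 52.4 and 45.6 FPKM in the middle, close to 54.2, 55.8 and 52.6 FPKM in the base and below 87.9, 81.4 and 68.5 FPKM in the apex, but it shares its locus entry with another gene, which makes its values uncertain.

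*GADL1*, a relative of glutamate decarboxylase that makes beta-alanine in the mouse, lies at 40023360 to 40105157 on chromosome 2. It had 43.0, 38.6 and 67.8 FPKM in the base, 97.0, 71.0 and 147 FPKM in the middle and 54.8, 49.3 and 83.8 FPKM in the apex. Number 3 was the highest and number 2 the lowest in each region, and apex 3 lay above middle 2. *GADL1* rose by 0.88 with the block (SE 0.06, adjusted p = 0.0096) and did not pass without it (SE 0.27, adjusted p = 0.49). *MYH11*, the smooth muscle myosin heavy chain, had 12.4, 11.8 and 22.1 FPKM in the base, 43.3, 27.9 and 53.9 FPKM in the middle and 16.8, 16.1 and 20.9 FPKM in the apex. Its middle libraries stood above all the ends, and *MYH11* rose by 1.26 with the block (adjusted p = 0.0099). At an equal neuron score its difference of 1.45 did not pass (adjusted p = 0.078 in limma), nor did 1.28 with the score and the block (adjusted p = 0.58).

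*RET* encodes the receptor of glial cell line-derived neurotrophic factors. It had 9.46, 8.72 and 15.4 FPKM in the base, 20.5, 20.4 and 26.0 FPKM in the middle and 13.3, 14.0 and 17.0 FPKM in the apex, so the groups did not overlap. *RET* rose by 0.76 with the block (SE 0.08, adjusted p = 0.016, against 0.29 without it) and had an r of -0.24 with the neuron score. In the list of neurotrophin and axon guidance genes, 3 of 62 measured genes were above both ends (*EFNA2*, *GFRA2* and *RET*) and 4 below (*NTN3*, *PLXNA2*, *ROBO2* and *SEMA3F*), with a median difference of -0.01. These shares, 4.84% above and 6.45% below, were near the 5.77% and 3.74% of all tested genes. *GFRA2*, a co-receptor of *RET*, had 5.90, 11.9 and 5.90 FPKM in the middle, and its difference of 0.49 did not pass with the block (adjusted p = 0.10).

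*SLC45A2*, a melanosome transporter gene on chromosome Z, had 1.07, 1.01 and 1.96 FPKM in the base, 3.45, 3.07 and 4.11 FPKM in the middle and 1.88, 1.46 and 1.98 FPKM in the apex. The groups did not overlap, and *SLC45A2* rose by 0.84 with the block (adjusted p = 0.019). It was the single gene above both ends among the 4 measured of 10 melanocyte genes (25%, against 5.77% of all tested genes). The score of that list differed by 0.32, 0.33 and 0.28 in numbers 1, 2 and 3. *SLC45A2* is 1 of the 4 genes in this score and itself differed by 0.86, 0.87 and 0.78, so the score is not separate from it. *FAM237A* had 5.79, 4.20 and 6.61 FPKM in the middle against 1.34 to 3.40 FPKM over the 6 end libraries, and rose by 0.94 with the block (adjusted p = 0.0096). *CABP7*, a calmodulin-like calcium-binding protein gene, had 4.07, 4.31 and 4.47 FPKM in the middle against 1.86 to 2.74 FPKM at the ends, and rose by 0.66 with the block (adjusted p = 0.023). Among the genes without a symbol, ENSGALG00000046293 had 22.3, 16.0 and 35.6 FPKM in the middle against 5.71 to 11.5 FPKM at the ends, and rose by 1.41 with the block (adjusted p = 0.0096).

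**Figure D4:**
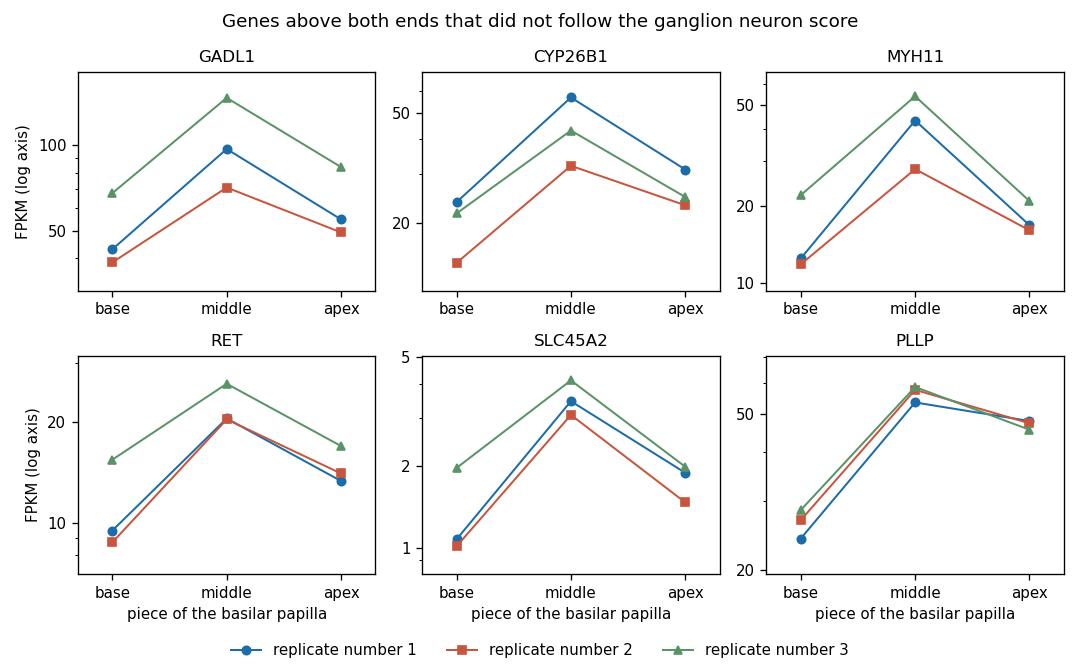
FPKM on a log axis (vertical) of 6 genes above both ends with an r under 0.5 in the base, middle and apex (horizontal), with a line for each replicate number. In each gene every line peaked in the middle, number 2 was not the highest in *GADL1*, *CYP26B1*, *MYH11*, *RET* and *SLC45A2*, and *PLLP* was nearly as high in the apex (45.6 to 48.0 FPKM) as in the middle (53.5 to 58.6 FPKM).

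Another set combined a low base with an apex that was nearer to the middle than the base was. *PLLP*, which encodes the myelin and epithelial membrane protein plasmolipin and lies at 822733 to 825202 on chromosome 11, was the single gene called without the block. It had 24.1, 26.9 and 28.5 FPKM in the base, 53.5, 57.6 and 58.6 FPKM in the middle and 48.0, 47.4 and 45.6 FPKM in the apex. The groups did not overlap, and *PLLP* rose by 0.67 (SE 0.06, adjusted p = 0.041 without the block and 0.0096 with it). The step from apex to middle was much smaller than that from base to middle and was not called (adjusted p = 0.066 with the block). The call of *PLLP* was lost when any single library was left out (adjusted p between 0.067 and 0.51). *CLEC19A*, a C-type lectin gene singled out after its values were seen, had 7.00, 7.14 and 9.16 FPKM in the base, 29.2, 17.7 and 29.4 FPKM in the middle and 17.0, 15.6 and 17.5 FPKM in the apex. Its groups did not overlap, with middle 2 just above the apex, and *CLEC19A* rose by 1.06 with the block (adjusted p = 0.016), whereas without the block its adjusted p was 0.13, and 0.026 when middle 2 was left out. Among the other genes with the smallest p in the fit with the block, *PSCA*, a surface antigen gene, had 157, 267 and 197 FPKM in the middle and 141, 251 and 168 FPKM in the apex, and *S100Z*, a calcium-binding protein gene, was above its apex in number 3 alone. Both rose against the mean of both ends (0.83 and 1.13, adjusted p = 0.0096 for each with the block), and both had a low base (57.5 to 82.2 and 5.10 to 15.1 FPKM). *TECTB*, which encodes beta-tectorin of the tectorial membrane and was singled out after its values were seen, likewise lay below its apex in number 2 (1525 against 1739.8 FPKM).

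In the FGF list, the ligands *FGF1* and *FGF9* were above both ends and *FGF13* and the inhibitor *SPRED2* were below, of 25 measured genes. That is 8% in each direction against 5.77% and 3.74% of all tested genes, with a median difference of 0.04. *FGF13* and *SPRED2* each share a locus entry with another gene, which makes their values uncertain. Neither passed with the block (adjusted p = 0.32 and 0.16). *FGF9* had 2.65, 3.98 and 3.54 FPKM in the middle and 2.203, 2.98 and 2.01 FPKM in the apex, and *FGF9* rose by 0.60 with the block (adjusted p = 0.032). *FGF1* had 27.7, 26.2 and 33.3 FPKM in the middle and was separated from all end libraries by a small margin, since apex 2 had 25.9 FPKM. *FGF1* was higher by 0.59 with an adjusted p of 0.019 with the block, at a ratio of 1.49. Of 44 measured homeobox and patterning genes, 5 (11.4%) were above both ends (among them *GATA3*, *SIX2* and *TBX2*) and 2 (4.55%) below (*LMX1A* and *SIX4*), with a median difference of -0.01. Among all tested genes the shares were 5.77% and 3.74%. *TBX2*, which specifies inner hair cells in the mouse, had 7.66, 6.79 and 7.95 FPKM in the base, 10.9, 11.2 and 11.4 FPKM in the middle and 9.03, 8.44 and 8.32 FPKM in the apex. The middle libraries were close together and above all ends, with a difference of 0.44 and an adjusted p of 0.025 with the block, at a ratio of 1.39.

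The genes below both ends numbered 488 against 753 above, an order that quantile normalization turned (712 against 559). The median smaller step was 0.12 in size, beside 0.17 for genes above, and 1 gene exceeded 1 in size against 38 of those above. *FZD4*, which encodes a Frizzled receptor of Wnt and norrin signals and lies at 188780367 to 188784802 on chromosome 1, had 15.6, 16.8 and 18.5 FPKM in the base, 9.52, 10.7 and 9.05 FPKM in the middle and 16.2, 18.9 and 14.4 FPKM in the apex. Each middle library lay below all 6 ends, and base and apex were alike. *FZD4* fell by 0.71 with the block (SE 0.08, adjusted p = 0.016) and did not pass without it (adjusted p = 0.13). At an equal neuron score the difference was -0.80 (adjusted p = 0.032), and -0.86 with the score and the block (adjusted p = 0.58). *FZD4* and *DLK1*, a non-canonical Notch ligand, were the 2 genes called lower than each end with the block. *DLK1* was low throughout, with 1.57, 1.49 and 2.10 FPKM in the base, 0.690, 0.342 and 1.49 FPKM in the middle and 1.47, 2.195 and 3.45 FPKM in the apex.

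In the Wnt list, *FZD4* and *SFRP4* were below both ends and *SFRP1* above, of 41 measured genes, with a median difference of -0.02. That is 4.88% below and 2.44% above, against 3.74% and 5.77% of all tested genes. *SFRP4*, a secreted binder of Wnt proteins, had 9.05, 10.7 and 8.63 FPKM in the base, 1.52, 2.21 and 1.49 FPKM in the middle and 1.77, 2.33 and 2.40 FPKM in the apex. It was high in the base alone, and middle 2 overlapped the apex. *SFRP4* fell by 1.07 against the mean of both ends with the block (adjusted p = 0.0096, against 0.063 without it), while its step from the apex was not called (adjusted p = 0.33 with the block). *GREM1*, an antagonist of bone morphogenetic proteins, and *SULF1*, which trims sulfate from heparan sulfate, had the same form. *GREM1* had 31.5, 19.4 and 20.8 FPKM in the middle and 33.3, 22.2 and 26.6 FPKM in the apex, and *SULF1* had 12.3, 9.33 and 9.003 FPKM in the middle and 14.2, 10.1 and 10.7 FPKM in the apex. Both fell with the block, *GREM1* by 0.58 (adjusted p = 0.013) and *SULF1* by 0.54 (adjusted p = 0.0096), and neither differed from the apex by a called amount (adjusted p = 0.15 and 0.13).

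*LCAT*, which encodes a cholesterol-esterifying enzyme, is a supporting cell marker in the list used. It was the single one of 16 measured genes of that list below both ends (6.25%, against 3.74% of all tested genes). *LCAT* had 160, 162 and 202 FPKM in the base, 139, 107 and 118 FPKM in the middle and 239, 214 and 256 FPKM in the apex. All middle libraries lay below all ends, and *LCAT* fell by 0.74 with the block (adjusted p = 0.016). The supporting cell score of the middle lay between a lower base and a higher apex in each number. It exceeded the mean of both ends by 0.23, 0.14 and 0.21. *DSP*, the desmosomal plaque protein desmoplakin, had 15.1, 14.5 and 18.9 FPKM in the base, 9.16, 7.94 and 8.61 FPKM in the middle and 11.7, 14.1 and 10.9 FPKM in the apex. Its groups did not overlap, and *DSP* fell by 0.65 with the block (adjusted p = 0.037). *ABI3BP*, an extracellular matrix protein gene, and *SLC39A8*, a zinc transporter gene, also had middle libraries below all ends (4.36 to 5.63 and 3.30 to 3.83 FPKM in the middle). Both fell with the block, by 0.85 and 0.80 (adjusted p = 0.048 and 0.043).

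Of 12 measured endothelial genes, *KDR* and *FLT1*, the receptors of vascular endothelial growth factor, were below both ends and 0 were above, with a median difference of -0.06. The share below was 16.7%, against 3.74% of all tested genes. *KDR* had 23.7, 24.9 and 24.7 FPKM in the base, 13.9, 17.1 and 13.5 FPKM in the middle and 17.8, 20.4 and 16.0 FPKM in the apex. Middle 2 overlapped apex 3, and the difference was -0.48 (adjusted p = 0.022 with the block, at a ratio of 0.70). *FLT1* differed by -0.15 and shares its locus entry. The score of the list differed by -0.13, 0.01 and -0.20 in numbers 1, 2 and 3, so the list as a whole was not lower in number 2.

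In several of the genes with the largest steps below both ends, 1 library set the size. *LMX1A*, a LIM homeobox factor of the inner ear, had 9.89, 13.4 and 12.6 FPKM in the base, 8.62, 3.03 and 9.63 FPKM in the middle and 11.8, 17.4 and 10.7 FPKM in the apex. *TMEM61*, a transmembrane protein gene, had 24.9, 7.74 and 26.1 FPKM in the middle and 25.5, 33.9 and 27.2 FPKM in the base. In both, middle 2 was far below the rest and the differences in numbers 1 and 3 were small (-0.30 and -0.25 for *LMX1A*, -0.23 and -0.05 for *TMEM61*). Neither passed with the block (adjusted p = 0.20 and 0.27). The endolymph secretion score, over 8 measured genes, was low in the same library, and its difference was -0.12, -1.16 and -0.15 in numbers 1, 2 and 3. The part of this list in the levels of *LMX1A* and *TMEM61* was not tested. *SLC47A2*, an organic cation exporter gene and the gene with the largest difference of those named below, had 16.4, 23.7 and 24.3 FPKM in the base, 2.06, 4.13 and 1.26 FPKM in the middle and 2.80, 20.2 and 1.57 FPKM in the apex. Apex 2 stood far above the other apex libraries and set most of the step from the apex, whereas the base was high in all 3 libraries. The difference from the mean of both ends was -1.41, -2.16 and -1.83 in numbers 1, 2 and 3. Its mean of -1.80 did not pass with the block (adjusted p = 0.081). In limma on 1 difference for each replicate number, the adjusted p was 0.029.

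**Figure D5:**
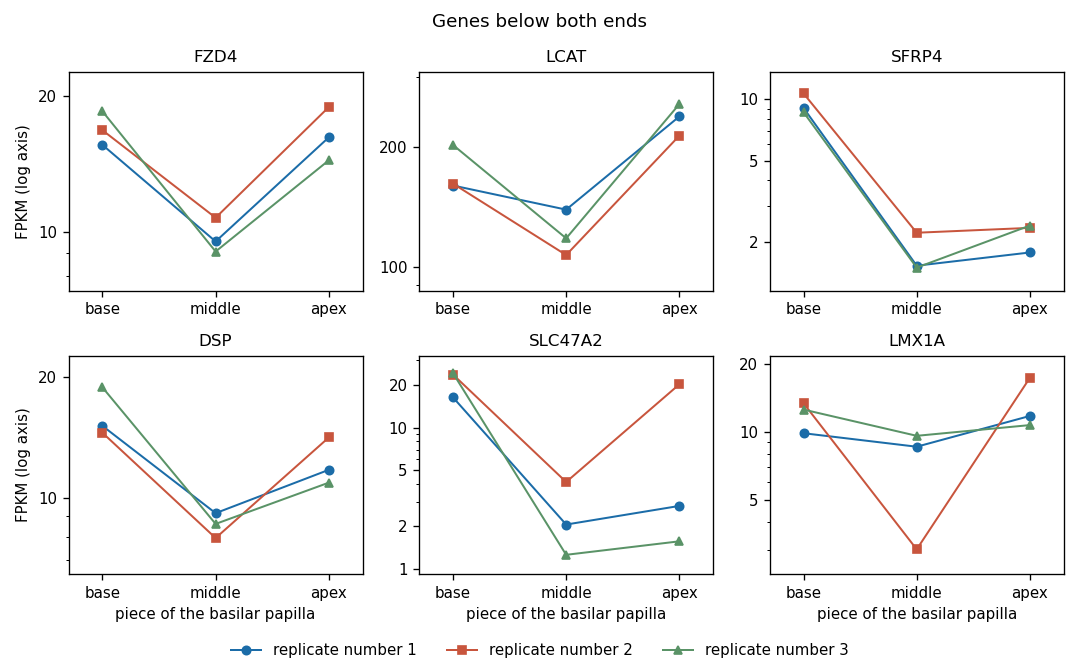
FPKM on a log axis (vertical) of 6 genes below both ends in the base, middle and apex (horizontal), with a line for each replicate number. *FZD4*, *LCAT* and *DSP* dipped in the middle in each number, *SFRP4* was high in the base alone, *SLC47A2* had 1 high apex library (20.2 FPKM), and *LMX1A* dipped in number 2 (3.03 FPKM).

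Of the 27 genes called lower with the block, 0 had an r over 0.8, against 5.34% of all tested genes, and 25 (92.6%) an r under 0.5, against 83.9%. Their median difference was -0.78, and -0.72 at an equal score. Of the further genes below both ends with large steps, *ATP13A5*, *NKX3-2*, *CRHBP*, *CPXM2* and *DCX* did not pass with the block (adjusted p between 0.080 and 0.14), and *RRAD*, a small GTPase gene with 6.03, 6.93 and 6.29 FPKM in the middle against 8.33 to 10.5 FPKM at the ends, had an adjusted p of 0.025 with the block at a ratio of 0.70.

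General cell functions were also listed. Of 57 measured ribosomal protein genes, 0 were above and 0 below both ends, and of 30 motile cilium genes 0 were above and 0 below. Among all tested genes, 5.77% were above and 3.74% below. In the hypoxia and glycolysis list, 5 of 32 genes (15.6%) were above (*ALDOC*, *ENO2*, *LDHB*, *PGAM1* and *PKM*). In that list 1 (3.1%) was below (*CA9*), and the median difference was -0.03. *ENO2*, *PKM* and *ALDOC* had an r of 0.98, 0.93 and 0.92 with the neuron score. *PGAM1* had an r of 0.47 and shares its locus entry with another gene. The part of ganglion RNA in the levels of this list was not tested. The immediate early genes *ATF3*, *DUSP1* and *MYC* were below both ends, 3 of 23 measured, against 3.74% of all tested genes. Of the 23, 0 were above, and the median difference was -0.0054. *DUSP1* shares its locus entry with another gene. *ATF3* had 2.23, 2.37 and 1.90 FPKM in the middle against 2.53 to 5.05 FPKM at the ends, and its difference of -0.49 did not pass with the block (adjusted p = 0.055).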

How the data were processed

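RNA-seq libraries of 3 regions of the chicken basilar papilla were grouped by their titles. Per the labels, mRNA was enriched by oligo-dT, 101-bp paired-end reads were aligned to galGal5 with STAR v2.5.4b, and Cuffdiff v2.2.1 gave the FPKM that the authors deposited, 1 value for each gene in each library. How Cuffdiff scaled libraries to each other is not given in the sources used here. FPKM are not counts, so Cuffdiff's test was replaced.

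Here limma 3.58.1 (R 4.3.3) was run on log2(FPKM + 1) of all 9 libraries, by region, with an intensity trend and two-sided tests, and p-values were adjusted by Benjamini and Hochberg over the 13045 genes kept. Calls needed an adjusted p below 0.05 and a 1.5-fold change in mean FPKM, the middle over the mean of the base and apex means. The study names no block. Same-numbered libraries correlated in their deviations from the region means (r 0.37 to 0.66 over 9 pairs, median 0.46; other pairs -0.52 to 0.15), and the numbers come from the titles. The methods give 4 chickens per replicate, without stating that same-numbered libraries share them. Relative depth came from the steps of low FPKM and is approximate. p-values measure the spread between pooled libraries, and with the block only the spread left after differences between replicate numbers are taken out.

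Genes named were the 15 with the largest smaller step in each direction among those with a symbol and a locus entry of their own, genes called without the block, the 5 smallest p with the block in each direction, list genes (up to 4 a list with values) and the neuron list, plus those said to be chosen after their values were seen. The members and lists were chosen with earlier results of these data known. The table holds 24880 genes, 11868 of them without a symbol. Scripts were tested on simulated data. Some results are not reported here.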

Additional observations from a re-analysis of the deposited data

How the results depend on the processing

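Without the block, the count of genes called higher was 1 and went to 0 with quantile normalization, without the intensity trend, with the neuron or the Schwann and myelin score plus the block, at a ratio of 2, and without any replicate number (1, 2 or 3). Leaving out single libraries gave 0 to 1 genes higher. The neuron score alone gave 7 higher and 3 lower, and 6 higher and 1 lower against both ends. The replicate block gave 84 higher and 27 lower, and 33 and 2 against both ends. The block fitted on 3 contrast values gave 44 and 25, and 20 and 2 against both ends. With the block, leaving out number 2 gave 11 and 1, and 12 and 1 against both ends, leaving out number 3 gave 0 higher, and 1 against both ends, and leaving out number 1 gave 0 higher and 0 against both ends. Those fits without a number, and the correlation over the end libraries, were chosen after seeing the data.

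Genes above both ends numbered 559 with quantile normalization, and 712 were below. Those above numbered 117 at a ratio of 1.2 against each end in each number, 1574, 1647 and 1169 without number 1, 2 or 3, and 872 to 1647 without single libraries. Genes below numbered 28, then 1064, 1727 and 892, and 613 to 1727, since fewer comparisons have to hold.

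Of 89 named genes, directions changed in 14. In limma with the neuron score these were *CPLX1* (-0.0042), *TUBB3* (-0.1165), *NEFL* (-0.1625), *NEFM* (-0.0946), *ELAVL4* (-0.0493), *RAB3C* (-0.0761) and *STMN3* (-0.1893). With the neuron score and block they were *ENO2* (-0.0092), *CDK5R2* (-0.1117), *ELAVL4* (-0.1399) and *STMN3* (-0.3371). With the Schwann and myelin score and block they were *TMEM61* (0.2341), *ALDOC* (-0.2063), *ELAVL4* (-0.3658), *GFRA2* (-0.1688), *RAB3C* (-0.2677), *SIX4* (0.0637), *STMN3* (-0.2364) and *SYT7* (-0.1784). Of the genes with a changed direction, *TUBB3*, *NEFL*, *NEFM*, *ELAVL4* and *STMN3* were themselves part of the neuron score. The block made 44 of the 89 pass an adjusted p under 0.05 that had not, and the block fitted on 3 contrast values made 30 pass. Of the 45 that passed with the block, 29 also passed on 3 contrast values. The cause of these changes was not tested.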
